A study of Olea europaea with 6 samples.

Results

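The transcripts described here were the olive ESTs with their lowest leaf signal in mature leaves of the bearing year. An EST (expressed sequence tag) is a partial cDNA sequence, and each olive EST was represented on the array by 3 spots summarized into 1 log2 signal. An EST was taken when its signal on the ON-M array was at least 2 log2 units below the lowest of the 6 other leaf arrays. This condition was met by 65 of the 5543 olive ESTs (1.17%), and 59 of them were described, while the other 6 were not reported here. The same condition was met by 1 of the 49072 probe sets designed on poplar (0.00204%). Since the 7 leaf arrays chose these ESTs, every difference between leaf groups was given as a description. Ripe and unripe fruits were compared by a test, since the condition did not use their arrays. The spread in this test was pooled over all groups, leaf arrays included.

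The leaves and fruits came from field-grown olive trees, cv. Ayvalık. ON-M and ON-J were mature and juvenile leaves of an "on-year" tree, sampled in November and July, and OFF-M and OFF-J were mature and juvenile leaves of an "off-year" tree, sampled in the same months of the following year. RF and UF were ripe fruits from October and unripe fruits from July of that second year, picked from a tree then in its "on" year. Each group was hybridized to 2 arrays except ON-M, for which 1 array was used here, so that no ON-M value had a replicate check. By the study's methods the leaves came from a pair of neighbouring trees, so that bearing year, calendar year and tree cannot be told apart. The study calls its replicates biological, but no source ties them to different trees, so a p-value here covers the spread between arrays alone, which may be technical, and the precision is limited by how few they are. The IDs carried no gene names, so the labelled organs were not checked against marker genes.

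Alternate bearing is the habit of fruit trees to follow a heavy crop with a light one, and in olive the leaves of a bearing shoot share resources with the growing fruits. Mature leaves are covered by a cuticle, a layer of cutin and waxes made from fatty acids in the epidermis. Leaves also make terpenoids, which include the side chain of chlorophyll, and move water through aquaporins, the membrane channels for water. Salicylic acid is a plant hormone of defense against pathogens. The GO terms used below to group the ESTs were those that the study assigned from matches to other species, and they were given to transcripts that the study had already selected on these samples. All 59 ESTs were among these, and they made up 11.2% of the 525 olive ESTs with such an entry, without the 6 not reported. Shares of a list are to be read against this value.

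The signal of these ESTs was low on the ON-M array as a whole and high on all other leaf arrays. Their median log2 signal was 7.78 on the ON-M array, 12.06 and 12.15 on the ON-J arrays, 10.62 and 10.53 on the OFF-M arrays, and 11.94 and 11.82 on the OFF-J arrays. In fruits the medians were 8.56 and 8.49 in RF and 11.69 and 11.80 in UF. On ON-M, 31 of the 59 (52.5%) were under a log2 signal of 8, compared with 33.1% of all olive ESTs. Under a signal of 6 the shares were 18.6% and 20.3%. On all 6 other leaf arrays, 55 (93.2%) were above 8, against 66.2% of all olive ESTs. The condition itself favours low signals on ON-M and high signals on the other leaf arrays. Nothing was therefore read from these shares. Random control sequence gave 5.20 on the ON-M array and 5.18 to 5.48 over all arrays. On ON-M, 5 of the ESTs were below the control and another 8 were within 1 above it, so that the size of their difference depended on the background of the array.

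The brightness of all olive ESTs also differed between the arrays, and its part in these results was not tested. The median of the 5543 olive ESTs was 10.66 on ON-M, 11.21 and 11.43 on ON-J, 11.34 and 11.40 on OFF-M, and 11.11 and 10.80 on OFF-J, and it was 9.83 and 10.22 on RF and 11.04 on both UF arrays. ON-M was below all 6 other leaf arrays by any size in 34.6% of the olive ESTs, and above all 6 in 9.36%. None of the 5543 olive ESTs was at least 2 above the other leaf arrays on ON-M. With each array centred on its olive median, 27 of the 59 still met the condition. RNA of whole organs was measured, so that fewer cells of a type and less RNA per cell cannot be told apart.

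**Figure D1:**
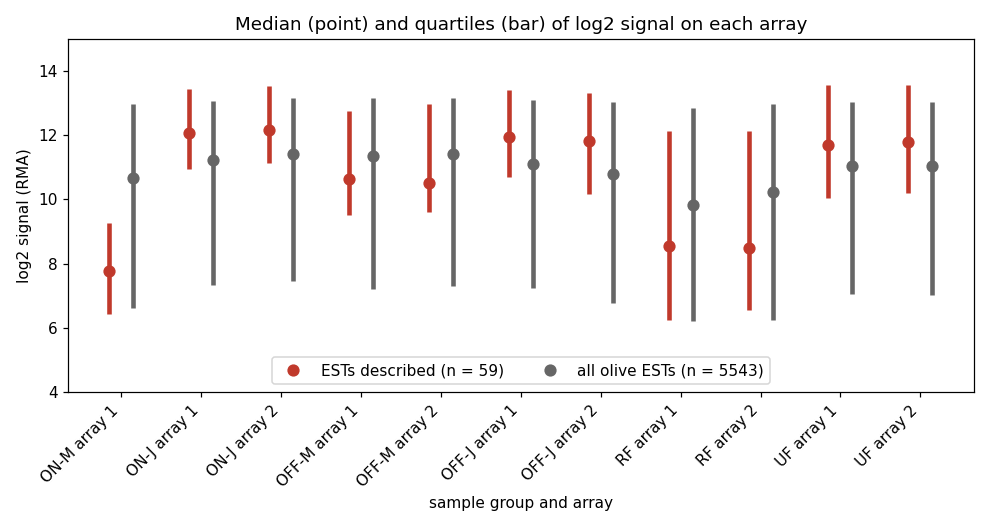
Median log2 signal (points) and quartiles (bars) on each of the 11 arrays, for the 59 ESTs in red and all 5543 olive ESTs in grey. The median of the 59 was 7.78 on ON-M and 10.53 to 12.15 on the other leaf arrays, and it was 8.49 and 8.56 on the ripe fruit arrays.

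Replicate arrays differed little for most of these ESTs. The median absolute difference between replicates was 0.229 in ON-J, 0.154 in OFF-M, 0.12 in OFF-J, 0.347 in RF and 0.09 in UF on the log2 scale. In RF, 11 of the 59 differed by at least 1 between replicates, and the widest was GO243043_1, by 2.92. The corresponding number was 2 in OFF-J and 0 in ON-J, OFF-M and UF.

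The distance between ON-M and the lowest other leaf array was 2.03 to 5.51, and the widest distances were in ESTs of amino acid metabolism and in ESTs of unknown process. On the log2 scale, ON-M minus ON-J was −6.21 to −2.51 with a median of −4.26, and ON-M minus OFF-M was −6.42 to −2.08 with a median of −2.80. Over all olive ESTs these medians were −0.20 and −0.26. Among the 6 arrays set against ON-M, the lowest was an OFF-M array in 43 of the 59, an OFF-J array in 11 and an ON-J array in 5. Over all olive ESTs the shares were 29.2%, 48.9% and 21.9%. The ESTs just inside the threshold were GO245065_1 and GO243390_1 (both 2.05) and GO244529_1 (2.03). Just outside it were GO244958_1 (1.97), GO244048_1 (1.96) and GO245725_1 (1.95).

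**Figure D2:**
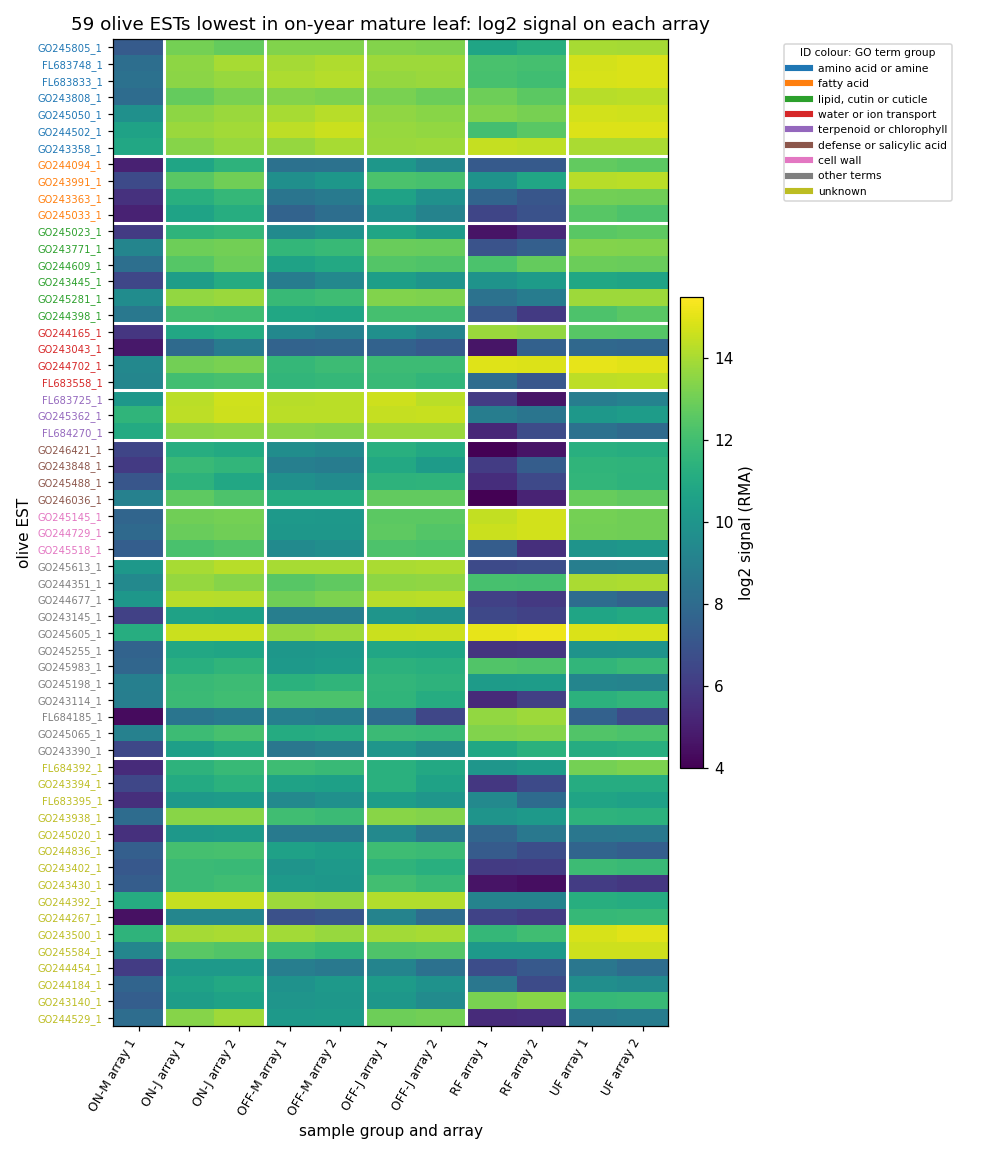
Log2 signal of the 59 ESTs (rows, grouped by GO term) on each of the 11 arrays (columns). ON-M, the first column, is darker than the other 6 leaf columns in every row, while the ripe fruit columns are darker than ON-M in some rows and brighter in others.

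The comparison of ripe with unripe fruits was tested with limma over all 54615 probe sets, and an EST was called when its log2 difference was 2 or more and its p, two-sided and adjusted by Benjamini-Hochberg, was below 0.05. Among all olive ESTs, 17.3% were called lower and 3.73% higher in RF than in UF, and the counts in the groups below can be read against these shares. The comparison is limited, since the condition chose ESTs that were bright in leaves. Differences between leaf groups were taken from the same fit with their standard errors. ESTs of one group can stem from the same transcript and are not independent.

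Amino acid and amine metabolism was the list with the largest share of its ESTs here, 7 of the 10 olive ESTs with such terms (70%, against 11.2% over all lists). It included 4 of the 5 widest distances from ON-M. GO245805_1 had a log2 signal of 7.29 in ON-M, compared with 13.10 and 12.80 in ON-J, 13.31 and 13.34 in OFF-M and 13.36 and 13.27 in OFF-J. Its lowest other leaf array was 5.51 above ON-M, and the 6 other leaf arrays spanned less than 1 log2 unit. FL683748_1 was at 8.15 in ON-M, against 13.53 to 14.15 on the 6 other leaf arrays, and FL683833_1 at 8.30, against 13.51 to 14.23. GO243808_1 was at 8.07 in ON-M, against 12.78 to 13.37 on the other leaf arrays. GO245050_1, GO244502_1 and the amine EST GO243358_1 were at 9.76, 10.65 and 10.89 in ON-M and between 13.43 and 14.56 on the other leaf arrays. All 7 were lowest in ON-M among the 11 arrays. The first 6 shared a single GO term, and the sequences that would tell whether they stem from 1 transcript were not analysed here.

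These amino acid ESTs were bright in both fruit stages and mostly lower in ripe fruit. GO245805_1 was 10.74 and 11.20 in RF and 14.01 and 13.93 in UF, a log2 difference of −3.0 ± 0.24 (SE, adjusted p = 6e-05, limma). A fall of at least 2 was called in 4 of the 7, the other 3 of them FL683833_1 (−2.76), FL683748_1 (−2.65) and GO244502_1 (−2.60). GO243808_1 and GO245050_1 passed the test with smaller differences, of −1.51 and −1.46. GO243358_1 gave +0.38 (adjusted p = 0.22). OFF-M minus OFF-J was 0.01 to 0.78 for these 7.

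Of the 13 olive ESTs with fatty acid terms, 4 were found here, all also annotated with oxidation-reduction. GO244094_1 had a log2 signal of 5.07 in ON-M, below the random control, compared with 10.78 and 11.43 in ON-J, 8.29 and 8.32 in OFF-M and 10.09 and 9.37 in OFF-J. Thus OFF-M was the lowest of its other leaf groups and ON-J the highest. GO243363_1 was 5.65 in ON-M, 11.27 and 11.66 in ON-J, 8.46 and 8.69 in OFF-M, and 10.63 and 9.81 in OFF-J. GO245033_1 was 5.08 in ON-M, 10.67 and 11.15 in ON-J, 7.67 and 8.14 in OFF-M, and 9.88 and 9.12 in OFF-J. GO243991_1 was 6.56 in ON-M, 12.55 and 13.00 in ON-J, 9.73 and 10.10 in OFF-M, and 12.26 and 12.17 in OFF-J. In all 4 the groups stood in the same order, ON-M lowest, then OFF-M, OFF-J and ON-J. These ESTs too shared their annotation and may overlap in sequence.

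In fruits, the 4 fatty acid ESTs were all higher in UF than on any leaf array and were called lower in RF. GO244094_1 was 7.25 and 7.26 in RF and 12.74 and 12.62 in UF, a difference of −5.42 ± 0.30 (adjusted p = 8.3e-06). The other 3 differed by −3.92 to −5.77. All 4 remained brighter in RF than in ON-M. In off-year leaves, OFF-M minus OFF-J was −2.31 ± 0.32 for GO243991_1 and −1.42 to −1.64 for the other 3.

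Lipid, cutin and cuticle terms were carried by 6 of the ESTs, of 24 olive ESTs with such terms. GO245023_1, annotated with cuticle development and transmembrane transport, was at 6.01 in ON-M, compared with 11.46 and 11.66 in ON-J, 9.49 and 9.90 in OFF-M and 10.76 and 10.29 in OFF-J. Both cutin biosynthesis ESTs were lowest in ON-M of all 11 arrays. GO244609_1 was 8.21 in ON-M, against 10.62 to 12.94 on the other leaf arrays, and GO243445_1 was 6.47, against 8.82 to 11.07. The 3 ESTs of lipid metabolism, GO243771_1, GO245281_1 and GO244398_1, were at 9.21, 9.58 and 8.63 in ON-M and were within 10.77 to 13.77 on the other leaf arrays.

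In fruits, the cuticle EST and the 3 lipid ESTs were called lower in RF. GO245023_1 was 4.60 and 5.34 in RF, below the random control, and 12.57 and 12.65 in UF, a difference of −7.64 ± 0.31 (adjusted p = 1.4e-06). GO243771_1, GO244398_1 and GO245281_1 were also called lower in RF, by −6.11, −5.86 and −5.23. In contrast, the differences of both cutin ESTs did not pass the test. GO244609_1 was 12.25 and 12.77 in RF and 12.90 and 12.88 in UF (−0.38, adjusted p = 0.30), and GO243445_1 differed by −0.66 (adjusted p = 0.14). The difference between the cutin and the lipid ESTs was itself not tested. OFF-M minus OFF-J was −0.83 to −1.61 in all 6.

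Among the transport ESTs, 3 were annotated with water transport, of 8 such olive ESTs, and 2 with inorganic cation transport, of 51; GO244702_1 carried both. GO244165_1, a water transport EST that also has an abscisic acid response term, was 5.80 in ON-M, compared with 10.88 and 11.13 in ON-J, 9.39 and 9.07 in OFF-M and 9.71 and 9.20 in OFF-J. It was brighter in fruits than in any leaf, with 13.78 and 13.64 in RF and 12.51 and 12.46 in UF. This was a smaller difference than 2 (+1.23 ± 0.25, adjusted p = 0.0074). GO244702_1 was 9.37 in ON-M, against 11.67 to 13.17 on the other leaf arrays, and it was brighter on all 4 fruit arrays, with a mean of 14.91 in RF and 15.04 in UF. FL683558_1, annotated with water and carbon dioxide transport and with responses to salt and drought, was 9.30 in ON-M, against 11.55 to 12.14 on the other leaf arrays. It was the transport EST with a called fruit difference, 8.11 and 7.11 in RF against 14.36 and 14.42 in UF (−6.78 ± 0.32, adjusted p = 2.9e-06). The cation transport EST GO243043_1 was 4.76 in ON-M, below the random control, and its RF replicates were 4.65 and 7.57, so that no RF level could be given for it.

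Terpenoid biosynthesis was represented by 3 of 8 olive ESTs, and their leaf signals were above those of both fruit stages. FL683725_1, also annotated with chlorophyll biosynthesis, was 10.10 in ON-M, compared with 14.32 and 14.67 in ON-J, 14.26 and 14.31 in OFF-M and 14.61 and 14.31 in OFF-J. The 6 other leaf arrays were within 0.5 of each other, and the lowest of them was 4.16 above ON-M. GO245362_1 was 11.52 in ON-M, against 14.32 to 14.62, and FL684270_1 was 11.04 in ON-M, against 13.40 to 13.76. In all 3 this also held for the low ON-M signal. FL683725_1 was 6.03 and 4.66 in RF and 8.85 and 9.10 in UF (−3.63 ± 0.40, adjusted p = 0.00041). FL684270_1 was called at −2.16 (adjusted p = 0.0043), a call lost without the first RF array (−1.48), and GO245362_1 gave −1.55 (adjusted p = 0.0018). Off-year leaves of both stages gave nearly the same values, with differences of −0.18 to −0.29.

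The ESTs with defense or salicylic acid terms were 4, and all of them fell to low signals in ripe fruit. GO246421_1, annotated with defense against fungi and with systemic acquired resistance, was 6.40 in ON-M, compared with 11.16 and 10.99 in ON-J, 9.62 and 9.35 in OFF-M and 11.24 and 10.96 in OFF-J. GO245488_1, with the same terms, was 7.06 in ON-M and 9.55 to 11.46 on the other leaf arrays. GO243848_1, which carries a hypersensitivity term, was 5.94 in ON-M and 8.84 to 11.80 on the others. GO246036_1, annotated with salicylic acid metabolism, was 9.03 in ON-M and 11.10 to 12.73 on the others. Again OFF-M was the second lowest leaf group in all 4, with OFF-M minus OFF-J at −1.61 to −1.78.

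All 4 of these ESTs were called lower in ripe fruit. GO246036_1 showed the largest fruit difference of the 59 ESTs, with 4.02 and 5.16 in RF and 12.84 and 12.71 in UF (−8.19 ± 0.35, adjusted p = 1.7e-06). GO246421_1 was 4.01 and 4.59 in RF and 11.27 and 11.16 in UF (−6.92 ± 0.26, adjusted p = 1e-06). Both were below the random control in RF, which makes the size of these differences dependent on the background. GO245488_1 and GO243848_1 differed by −5.49 and −4.79. In 3 of the 4, the RF mean was below ON-M. Of the 26 olive ESTs with defense terms, 3 were among the 59 (11.5%), and of the 31 with hormone terms, 6 (19.4%), against 11.2% over all lists.

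Cell wall terms were found in 3 of the ESTs, of 17 such olive ESTs, and in all 3 OFF-M was more than 2 log2 units below OFF-J. GO245145_1, annotated with cell wall biogenesis and trichome morphogenesis, was 7.75 in ON-M, compared with 12.99 and 13.09 in ON-J, 10.17 and 10.12 in OFF-M and 12.61 and 12.60 in OFF-J. GO244729_1, with nearly the same terms, was 7.93 in ON-M, 12.88 and 13.00 in ON-J, 10.08 and 10.07 in OFF-M, and 12.66 and 12.44 in OFF-J. GO245518_1, a regulator of transcription in secondary cell wall formation by its terms, was 7.44 in ON-M, 12.18 and 12.36 in ON-J, 9.52 and 9.67 in OFF-M, and 12.27 and 12.18 in OFF-J. OFF-M minus OFF-J was −2.46 ± 0.21 for GO245145_1 and −2.48 ± 0.21 for GO244729_1. For GO245518_1 it was −2.63 ± 0.48.

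In fruits, the cell wall ESTs did not behave alike. GO245145_1 was 14.46 and 14.73 in RF and 13.10 and 13.01 in UF (+1.54, adjusted p = 0.0011), and GO244729_1 gave +1.60 (adjusted p = 0.00085), both below the size of 2. GO245518_1 was 7.38 and 5.56 in RF and 9.95 and 10.09 in UF, and was called lower (−3.55 ± 0.48, adjusted p = 0.0012).

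**Figure D3:**
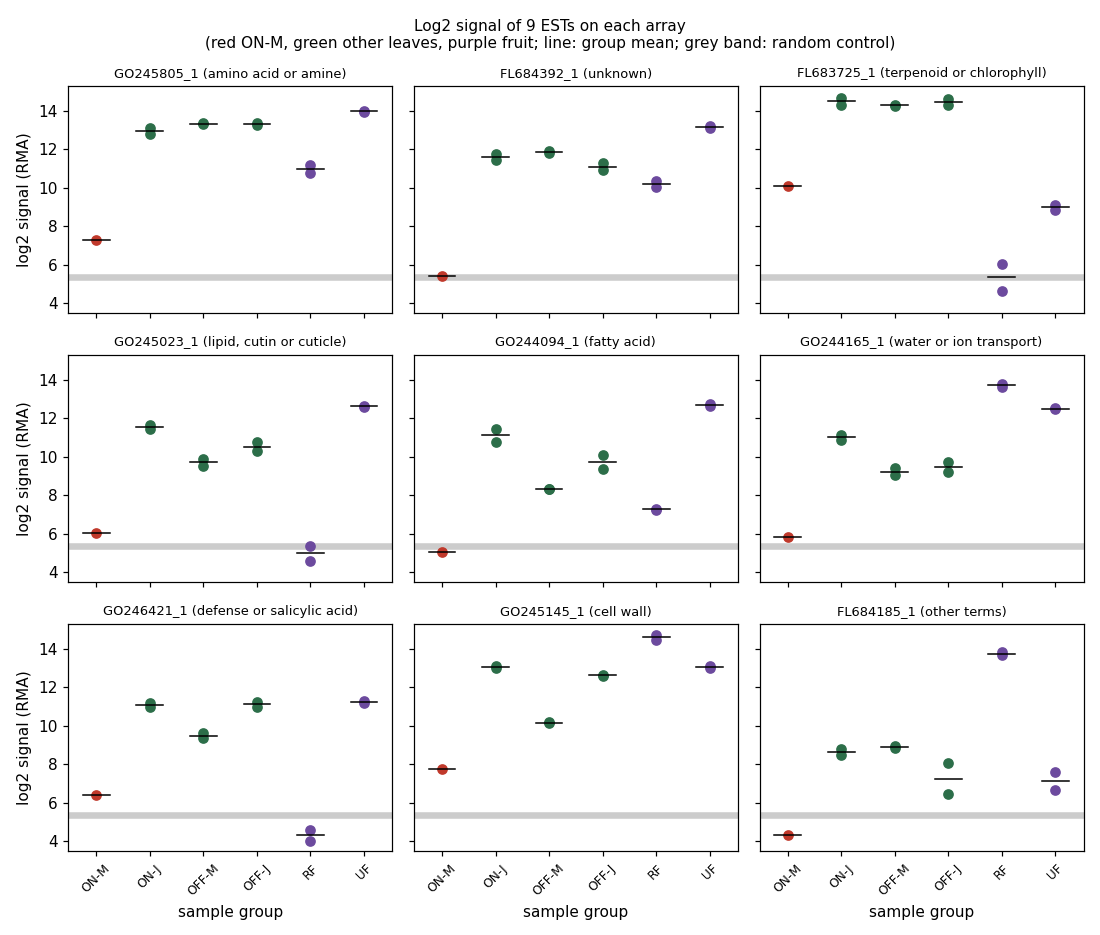
Log2 signal on each array of 9 ESTs from different GO term groups, with ON-M in red, the other leaf groups in green and fruits in purple, the group mean as a line and the range of the random control as a grey band. ON-M is below all other leaf arrays in each panel, while the fruit arrays lie above, between or below the leaf values.

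Another 12 ESTs carried other terms. GO243114_1, annotated with flavonol biosynthesis and response to light, was 8.94 in ON-M, against 11.11 to 12.26 on the other leaf arrays, and it was lower in RF (5.37 and 6.16) than in UF (11.41 and 11.58), by −5.73 ± 0.29 (adjusted p = 4.9e-06). GO245983_1, the only proteolysis EST, was 7.78 in ON-M and 10.19 to 11.51 on the others, and its fruit difference of +0.62 did not pass the test (adjusted p = 0.058). GO244677_1, annotated with steroid metabolism and the response to wounding, was 10.09 in ON-M and 13.00 to 14.30 on the others, but 6.20 and 5.89 in RF and 8.05 and 7.67 in UF. GO245613_1, with the general term metabolic process, was 10.13 in ON-M, 13.99 to 14.27 on the other leaf arrays and below 9 on all fruit arrays.

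FL684185_1 was the single EST called higher in ripe fruit. This EST, annotated with nucleoside metabolism and protein ubiquitination, was 4.32 in ON-M, below the random control, compared with 8.45 and 8.76 in ON-J, 8.96 and 8.84 in OFF-M and 8.05 and 6.43 in OFF-J. Its fruit signals were 13.64 and 13.83 in RF and 7.57 and 6.65 in UF, a difference of +6.63 ± 0.50 (adjusted p = 4.4e-05). The replicates of OFF-J differed by 1.62 for this EST, and the second of them set its distance of 2.11 from ON-M.

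The process of 16 ESTs was unknown. FL684392_1 had the second widest distance of all 59, with 5.43 in ON-M, near the random control, compared with 11.45 and 11.76 in ON-J, 11.91 and 11.79 in OFF-M and 11.29 and 10.92 in OFF-J. GO243394_1, FL683395_1 and GO243938_1 followed among the unknown ESTs, with 6.45, 5.55 and 8.04 in ON-M and distances of 4.07, 3.87 and 3.77. GO244529_1 was at the other end of the distances, with 8.13 in ON-M, 13.43 and 13.86 in ON-J, 10.16 and 10.25 in OFF-M, and 12.94 and 13.06 in OFF-J. It had the largest difference between off-year stages, −2.79 ± 0.23. In fruits, 9 of the 16 were called lower in RF and 0 higher. These included FL684392_1, with 10.02 and 10.34 in RF and 13.11 and 13.21 in UF (−2.98 ± 0.24, adjusted p = 6.9e-05). The list of unknown process held 181 olive ESTs. Outside the 59, 82 of its ESTs were called lower in RF and 10 higher. Lower calls were thus frequent in the rest of this list too, and nothing particular to the 16 was read from their count.

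No fruit array entered the condition, and the comparison of ripe with unripe fruits could therefore be tested. Of the 59 ESTs, 33 were called lower in RF than in UF and 1 higher. Among all olive ESTs, 17.3% were called lower and 3.73% higher, and among all probe sets 3.46% and 3.3%. The condition chose ESTs bright in leaves, and all 59 were transcripts that the study had selected on these samples. Both limit the comparison with these shares. Of the 59, 6.78% were above 8 in neither fruit stage, against 28.2% of all olive ESTs. The part of brightness in the difference was not tested. The median log2 difference was −2.28, against −0.11 over all olive ESTs, and 49 of the 59 were below 0. At the adjusted p alone, 42 were lower and 7 higher, with 31.8% and 20.8% of all olive ESTs. After centring each array on its olive median, which was lowest in RF, 24 were called lower and 7 higher, with 10.7% and 16.1% of all olive ESTs under the same centring. Single arrays decided 3 of these calls. FL684270_1 was lost without the first RF array (−1.48), GO244392_1 (−2.02) without the first UF array (−1.99), and GO244184_1 (−2.01) without the second RF array (−1.04) or either UF array (−1.91 and −2.11, adjusted p = 0.106 and 0.081).

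**Figure D4:**
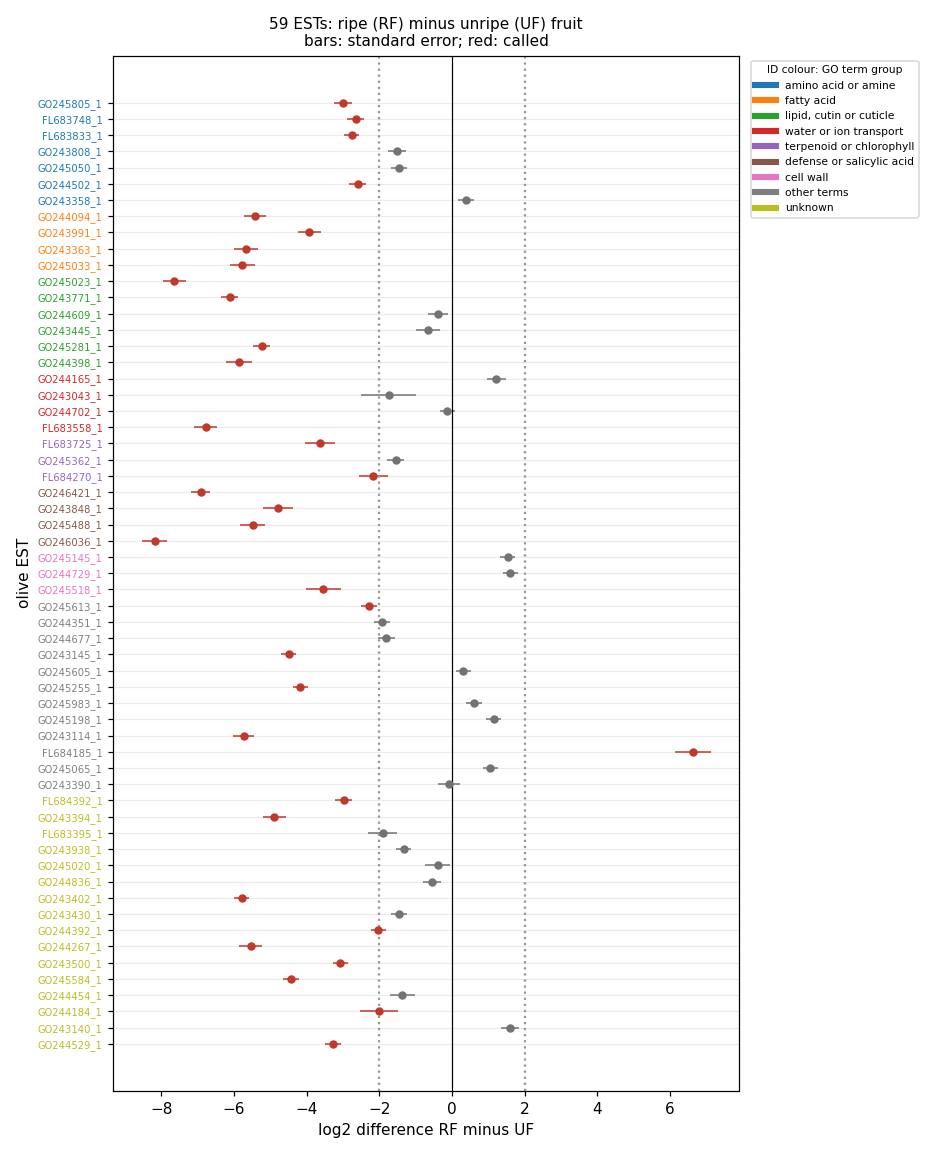
Log2 difference between ripe and unripe fruit (RF minus UF) of each of the 59 ESTs, with the standard error, in red where called and grey where not, and dotted lines at −2 and 2. In red, 33 ESTs lie left of −2 and FL684185_1 lies at 6.63, and the fatty acid and defense ESTs lie between −8.19 and −3.92.

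The brightness in fruits also differed from that of olive ESTs in general. A mean log2 signal above 8 in UF but not in RF was found for 24 of the 59 (40.7%), compared with 12.2% of all olive ESTs. Another 30 (50.8%, against 57.6%) were above 8 in both stages, 4 in neither (6.78%, against 28.2%) and 1 in RF alone. The UF mean was above the highest of the 6 other leaf arrays in 34 ESTs and at least 2 above ON-M in 48. ON-M was the lowest of all 11 arrays in 35 ESTs, while the RF mean was below ON-M in 23 and the UF mean in 6. The condition selected ESTs that were bright in leaves, and these comparisons of fruit with leaf were therefore given without a test. Their counts have no share over all olive ESTs beside them, so nothing particular to the 59 was read from them.

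The off-year leaf stages were compared without a test, since both had entered the condition and an OFF-M array was the lowest of the 6 in 43 of the 59 ESTs. The median of OFF-M minus OFF-J was −0.71, against 0.11 over all olive ESTs, and 46 of the 59 were below 0. Differences beyond −2 were those of GO244529_1, the cell wall ESTs GO245518_1, GO244729_1 and GO245145_1, and the fatty acid EST GO243991_1. For description only, these 5 were past the size and adjusted p limits used for fruits, and 0 were in the other direction. Of all olive ESTs, 0.289% were past these limits as lower and 2.94% as higher. Such shares are no background for the 59, since OFF-M and OFF-J arrays took part in choosing them. After olive-median centring the number was 14 lower and 0 higher, with 0.848% and 2.11% of all olive ESTs. GO243991_1 and GO245518_1 were no longer past the limits when any 1 of the 4 arrays was left out, with 3 or 4 ESTs then counted, although their differences stayed at −2.12 to −2.70. Because the same arrays chose the ESTs, nothing was read from these counts.

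**Figure D5:**
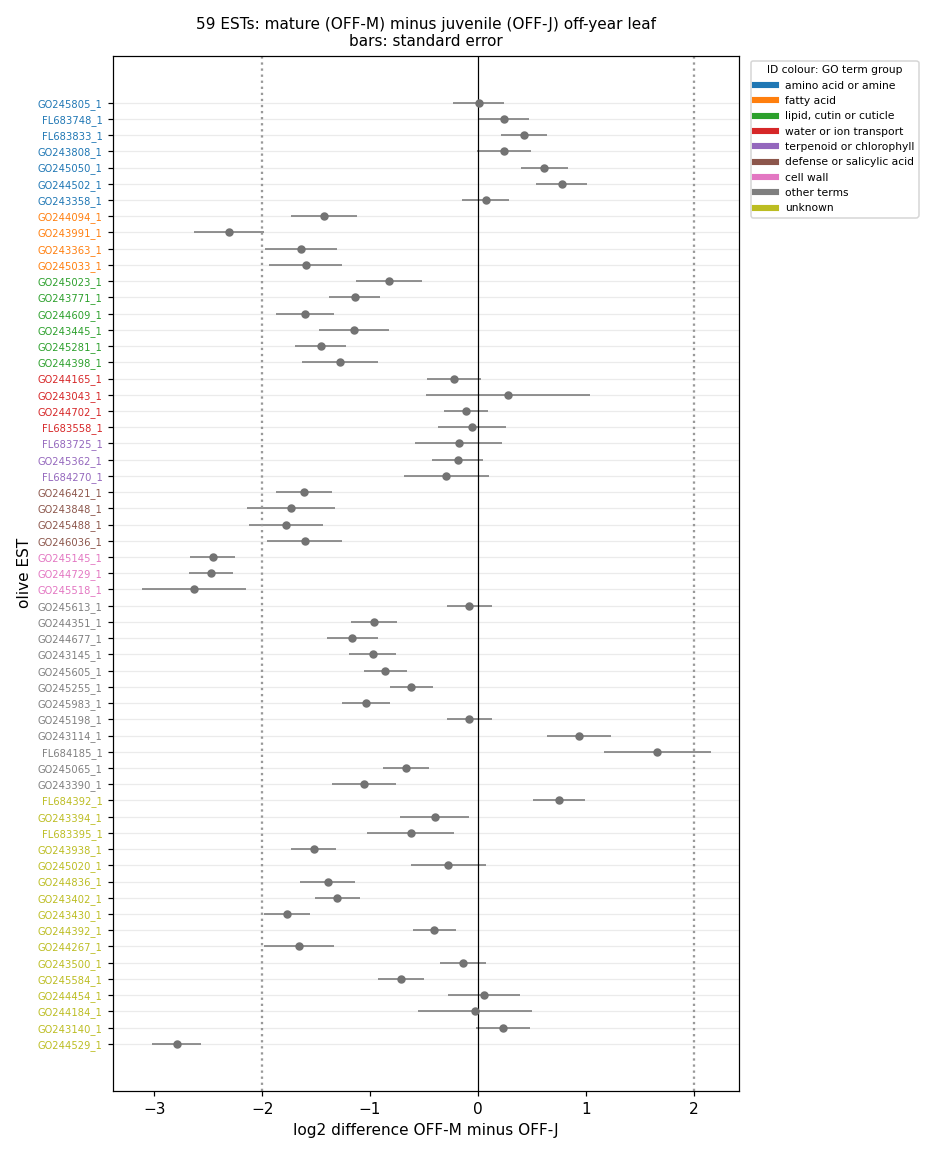
Log2 difference between mature and juvenile off-year leaves (OFF-M minus OFF-J) of each of the 59 ESTs, with the standard error and dotted lines at −2 and 2. The 5 ESTs beyond −2 lie between −2.79 and −2.31, and the amino acid ESTs, at the top, lie between 0.01 and 0.78.

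The juvenile leaves, whose 4 arrays had also entered the condition, were compared in the same way. ON-J minus OFF-J was −0.37 to 1.55 with a median of 0.25, against 0.18 over all olive ESTs, and it was above 0 in 45 of the 59. None of the 59 was past the limits of a call in limma, as was 0% of all 54615 probe sets. At an unadjusted p under 0.05 and any size, 14 of the 59 were higher and 0 lower, where 16.1% and 2.42% of all olive ESTs were. The methods' t-test without adjustment gave 0 at a log2 difference of at least 2. Nothing was read from these counts either, since the same arrays chose the ESTs. The largest values were those of the water transport EST GO244165_1 (+1.55 ± 0.25) and of GO244454_1, of unknown process (+1.45 ± 0.34). The 4 fatty acid ESTs gave 0.56 to 1.41, and the 7 amino acid ESTs −0.37 to 0.15.

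Oxidation-reduction terms were as frequent among the 59 as amino acid terms, with 7 of the 49 olive ESTs that carry them (14.3%), 4 of them the fatty acid ESTs. Other lists held fewer. The inorganic cation transport terms, carried by 51 olive ESTs, gave 2 (3.92%), and the 13 proteolysis ESTs and the 9 transcription ESTs gave 1 each. The cation transport ESTs outside the 59 had distances from ON-M of −2.55 to 1.95, with a median of 1.15. Their median ON-M signal was 5.23, near the random control, and the part of this in the low share was not tested. None of the 102 olive ESTs with carbohydrate terms was found here, nor any of the 9 with protein folding or heat terms or the 8 with phosphorylation terms. IDs that start with GO, which the study describes as a library of olive leaves and fruits, made up 86.4% of the 59, against 66.9% of all olive ESTs. The 8 others (13.6%, against 18.4%) start with FL, a library of fruitlets of cv. Leccino. Those that start with FN, 13.7% of all olive ESTs, were not represented.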

How the data were processed

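RNA of olive leaves and fruits was measured on 11 one-colour (Cy3) arrays in 6 groups, 2 arrays per group and 1 for ON-M. Groups followed the sample labels. Per the study's methods the authors quantile-normalized background-subtracted signals, summarized them by RMA and deposited log2 values per array, which were used unchanged. RMA had no version in the sources used here. The averaged log2 table, also deposited, equalled the array means within 0.0001. A fault of 1 array, such as ON-M, would enter all its values. The random control was left out of the tests.

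Tests were fitted by limma 3.58.1 (R 4.3.3) over 54615 probe sets, with 1 mean per group, 5 residual and 3.67 prior degrees of freedom. The calculation was tested on simulated data. Tables and plots used Python 3.11.15 with matplotlib 3.10.9, scipy 1.17.1, numpy 2.4.6 and pandas 2.3.3. Results were adjusted over all probe sets. Only RF against UF compared arrays outside the choice of ESTs, though its spread was pooled over all groups. Leaf comparisons, first planned as tests, were kept as descriptions. The ESTs and lists were chosen with earlier results of these data known. Named were the 10 widest distances, 2 per list, the 5 largest called differences per direction, and 3 on each side of the threshold; others were added for description after their values were seen. The gene table provided matched 0 olive IDs, and a second ON-M array was not analysed here. Alternatives were other thresholds, scalings, tests, filters and omitted arrays.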

Additional observations from a re-analysis of the deposited data

How the results depend on the processing

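The number of ESTs that met the condition followed the threshold and the scaling. It was 130, 30, 16 and 7 at a distance of 1.5, 2.5, 3 and 4, 27 with arrays centred on olive medians and 32 with quantile normalization within olive ESTs, each without the 6 not reported. It stayed at 59 to 79 with 1 array left out, 71 with the averaged table and 59 with other scalings, and the cause of the drop with olive scaling was not tested. Of RF against UF, 34 calls became 0 with the methods' t-test after adjustment (31 unadjusted) and 32 to 34 with 1 array left out. For OFF-M against OFF-J, whose arrays chose the ESTs, the number past the limits was followed as a description and not as a test. It went from 5 to 0 with the adjusted t-test and to 14 with olive-median centring. It was 12 at a difference of at least 1 or with no minimum. ON-J against OFF-J gave 0 in all settings run. Replicates with the same number correlated between groups in their deviations at −0.05 to 0.15 over all probe sets and −0.25 to 0.19 over olive ESTs. These values gave no ground to pair the arrays by number, but they cannot exclude a shared tree or batch. With replicate number as a replicate block, all 34 calls of RF against UF remained, and 32 remained with the fruit arrays alone in the fit. ESTs bright in neither fruit numbered 1 and 10 above a signal of 7 and 9, in place of 4, and 0 in place of 1 were bright in RF alone above 7. The largest called differences of RF against UF in each direction, those of GO246036_1, GO245023_1, GO246421_1, FL683558_1, GO243771_1 and FL684185_1, were also recomputed. Their calls were lost with the adjusted t-test alone, and no direction was reversed. Other named ESTs were not followed in this way. All 10 of the widest distances from ON-M were smaller with olive-median centring, such as 4.75 in place of 5.51 for GO245805_1. Signals near the random control limit the size of a difference, and whether they also affect its direction was not tested.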

Other observations

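The single poplar probe set that met the same condition was gw1.XIX.1830.1, with a log2 signal of 4.87 in ON-M, compared with 7.57 and 6.96 in ON-J, 7.18 and 7.34 in OFF-M and 7.01 and 7.18 in OFF-J. It was 8.56 and 7.26 in RF and 9.04 and 8.41 in UF. In the opposite direction, ON-M was at least 2 above all 6 other leaf arrays in 22 of the 49072 poplar probe sets (0.0448%) and in 0 of the 5543 olive ESTs.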
